A study of Mus musculus with 6 samples.

Results

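The genes for chemokines and chemokine receptors were described in the prostates of castrated and intact mice that develop prostate cancer. A gene was included when its symbol began with Ccl, Cxcl, Ccr or Cxcr followed by a digit, or was Cx3cl1, Cx3cr1, Xcl1, Xcr1, Pf4, Ppbp or one of Ackr1 to Ackr4, and symbols with the pseudogene mark -ps were left out. This gave 64 of the 24421 genes listed, 41 for ligands and 23 for receptors. RNA sequencing covered 6 prostate samples, 4 labelled Cx for castration status (called castrated) and 2 labelled Intact. All 6 carry 1 genotype, the PB-Cre4 transgene with a floxed gene that is not named here. In such mice a probasin promoter drives Cre recombinase in prostate epithelium, while other cells of the gland keep the floxed gene. No sample without the deletion is included here, so no value below compares tumour with normal prostate. The labels give no age, strain background or time since castration, and separate animals are not stated. P-values thus reflect the spread among the samples alone, and that spread may be technical.

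Chemokines are small secreted proteins that bind G protein-coupled receptors on leukocytes and other cells and direct their movement along a gradient. Families are named by the spacing of the first cysteines (CC, CXC, CX3C and XC). CXC ligands with a Glu-Leu-Arg motif act through Cxcr2 and recruit neutrophils, the interferon-inducible ligands Cxcl9, Cxcl10 and Cxcl11 act through Cxcr3 on T and NK cells, and the inflammatory CC ligands act mainly on monocytes and macrophages. Atypical receptors bind chemokines without G protein signalling and clear or transport them.

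In castrated prostates the neutrophil-attracting ligand genes Cxcl5 and Cxcl15 and the receptor gene Cxcr2 rose, and Ccl9, a ligand of Ccr1, fell. These were the 4 members that passed an adjusted p of 0.05 among the 48 members expressed highly enough to be tested (8.33%), against 1.97% of all 13898 genes tested (limma with Benjamini-Hochberg adjustment over all genes tested). Higher calls numbered 3, against 0.698% of all genes tested, and lower calls 1, against 1.27%. With edgeR on the whole reads recovered from the tables, 1 member was called higher (Cxcr2) and 1 lower (Ccl9), 2 in all, against 1.46% of all genes (0.389% higher, 1.07% lower). With DESeq2, 7 members were higher and 7 lower (29.2%), against 9.30% (4.76% higher, 4.54% lower). An unadjusted p under 0.05 in limma was reached by 9 members higher, against 7.84% of all genes, and by 8 lower, against 8.06%. The groups did not overlap in 16 tested members. Of these, 8 were higher (16.7%, against 13.4% of all genes tested) and 8 lower (16.7%, against 13.2%), shares close to the background. The median log2 difference, castrated minus intact, was -0.18 over the 48 members and 0.00 over all genes tested, with 20 members above 0 and 28 below.

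**Figure D1:**
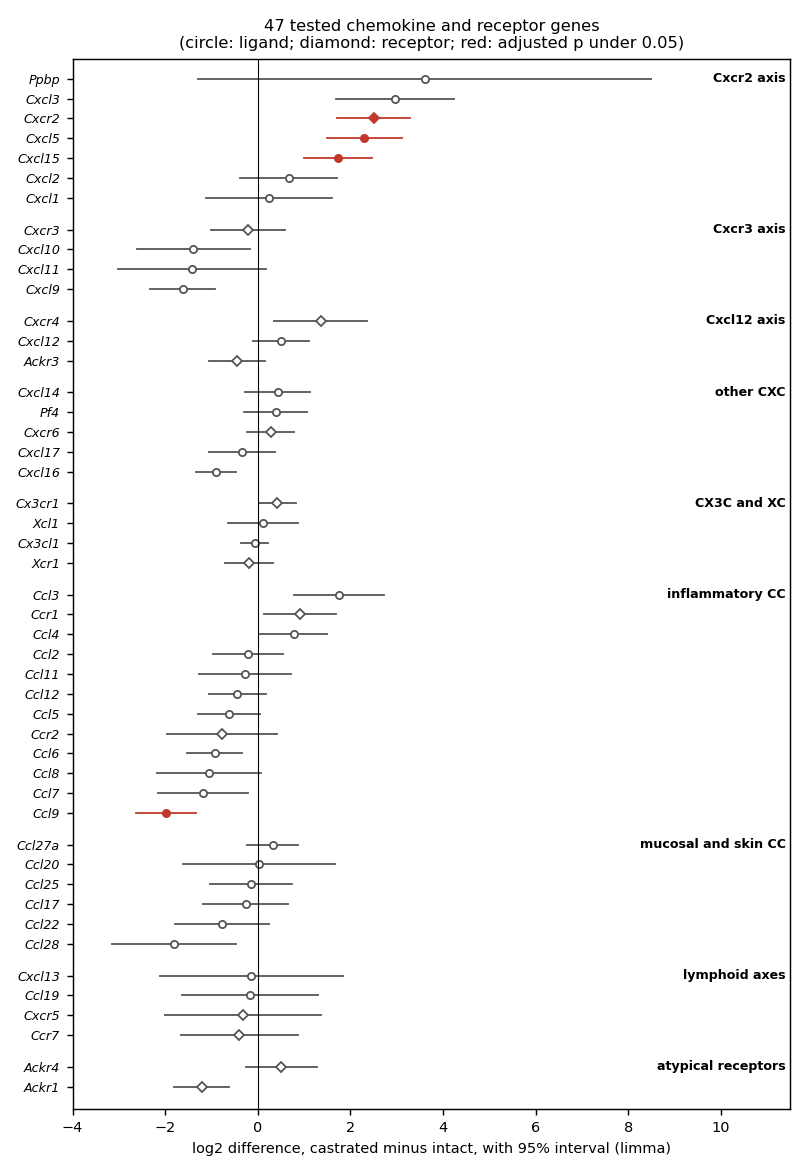
Log2 difference, castrated minus intact, with its 95% interval from limma, for the tested members grouped by axis, except 1 receptor that is not reported here (circles, ligands; diamonds, receptors; filled red, adjusted p under 0.05). Cxcr2, Cxcl5 and Cxcl15 lie to the right of 0 and Ccl9 to the left, while Ppbp has the widest interval, from -1.29 to 8.50.

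The samples held between 43679297 and 59170793 reads in genes. Values below are rescaled CPM, reads per 1000000 reads in genes, divided by a size factor for each sample, and a count of 0 allows up to 3 reads, or 0.0507 to 0.0687 CPM before rescaling. Correlations of log2 values ran from 0.941 to 0.988 among castrated samples and from 0.941 to 0.952 between the groups, and the intact pair correlated at 0.979. Castrated sample 4 stood apart from castrated samples 1 and 3 (correlations of 0.941 and 0.954). It lay above the other castrated samples in 24 of the 48 tested members and below them in 12. Without it limma called 4 members higher and 6 lower, against 7.48% of all genes. Without castrated sample 1 it called 2 members (Cxcr2 and Ccl9, against 0.561% of all genes), and without intact sample 1 it called Cxcl5 alone (against 0.137%). It called 0 members without castrated sample 2 (against 0.597%), castrated sample 3 (0.331%) or intact sample 2 (0.137%). Of the prostate markers, Hoxb13 was present in every sample, and Msmb had 0 reads in all 4 castrated samples.

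In bulk tissue, fewer cells of a type and less RNA per cell cannot be told apart. Marker lists were therefore measured beside the members. limma called 3 of 11 tested neutrophil markers higher, 1 of 15 monocyte and macrophage markers lower (Ly6c2) and 3 of 6 prostate markers lower. Of all genes tested, limma called 0.698% higher and 1.27% lower. It called 0 of 9 dendritic cell, 15 T and NK cell, 9 B and plasma cell, 11 endothelial, 9 fibroblast, 6 smooth muscle and 8 epithelial markers and 0 of the 1 platelet marker that could be tested. In these lists an unadjusted p under 0.05 went with higher values for 4 smooth muscle markers and 1 endothelial marker. It went with lower values for 2 endothelial, 2 fibroblast, 2 epithelial and 1 T and NK cell markers. Dendritic cell, B and plasma cell and platelet markers had 0. Of all genes tested, 7.84% were higher and 8.06% lower at that p. edgeR called 0 in all of these lists, against 1.46% of all genes. DESeq2 called 4 smooth muscle markers higher (4.76% of all genes), 1 epithelial marker lower (4.54%) and 0 in the others.

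Several of the ligands that bear the results lie side by side on chromosome 5. The 250 bases before the start sites of Cxcl15, Cxcl3, Cxcl1 and Cxcl2 are shown, with those of Cxcr2 and Ccl9. They are from RefSeq, build GRCm38.p6, 5′ to 3′ on the strand of the gene. No window was found for the called ligand gene Cxcl5. Capitals mark matches to the κB motif of NF-κB factors on either strand. The first sequence belongs to a member that rose and has no match.
Cxcl15 (chr5:90794284-90794533, plus strand): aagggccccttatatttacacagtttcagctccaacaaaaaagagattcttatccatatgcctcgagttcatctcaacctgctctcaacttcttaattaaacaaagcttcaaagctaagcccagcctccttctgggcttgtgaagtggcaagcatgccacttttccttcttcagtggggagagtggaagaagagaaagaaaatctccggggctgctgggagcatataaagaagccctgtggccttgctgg
The next sequences belong to Cxcl3, Cxcl1 and Cxcl2, which share a κB stretch.
Cxcl3 (chr5:90785851-90786100, plus strand): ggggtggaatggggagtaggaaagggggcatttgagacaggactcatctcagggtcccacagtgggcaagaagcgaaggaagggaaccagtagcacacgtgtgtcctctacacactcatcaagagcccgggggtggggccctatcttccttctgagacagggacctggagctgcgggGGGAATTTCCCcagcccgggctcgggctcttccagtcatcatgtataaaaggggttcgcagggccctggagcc
Cxcl1 (chr5:90890995-90891244, plus strand): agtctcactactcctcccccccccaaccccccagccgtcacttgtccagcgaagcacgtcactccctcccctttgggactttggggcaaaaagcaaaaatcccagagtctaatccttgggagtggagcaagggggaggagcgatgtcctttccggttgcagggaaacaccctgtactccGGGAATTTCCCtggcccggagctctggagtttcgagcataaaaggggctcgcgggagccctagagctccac
Cxcl2 (chr5:90903649-90903898, plus strand): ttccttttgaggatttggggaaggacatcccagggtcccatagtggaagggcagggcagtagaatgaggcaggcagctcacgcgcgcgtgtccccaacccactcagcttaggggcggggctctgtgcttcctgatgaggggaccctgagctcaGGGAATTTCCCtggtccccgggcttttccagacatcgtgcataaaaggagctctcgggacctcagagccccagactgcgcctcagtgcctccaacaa
The last belong to Cxcr2, the receptor that rose, and to Ccl9, the ligand that fell.
Cxcr2 (chr1:74153744-74153993, plus strand): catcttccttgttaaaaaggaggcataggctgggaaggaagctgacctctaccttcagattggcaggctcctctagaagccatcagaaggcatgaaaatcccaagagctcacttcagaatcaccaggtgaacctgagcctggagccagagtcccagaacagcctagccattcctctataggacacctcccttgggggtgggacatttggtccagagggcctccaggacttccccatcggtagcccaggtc
Ccl9 (chr11:83578637-83578886, minus strand): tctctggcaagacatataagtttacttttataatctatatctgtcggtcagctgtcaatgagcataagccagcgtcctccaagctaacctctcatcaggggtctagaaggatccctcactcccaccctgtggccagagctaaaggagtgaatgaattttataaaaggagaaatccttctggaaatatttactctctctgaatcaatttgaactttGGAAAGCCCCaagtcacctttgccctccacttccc

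Cxcl3, Cxcl1 and Cxcl2 each held the letters GGGAATTTCC, at 73, 71 and 97 bases before the start, where matches on opposite strands overlap in 1 stretch. Distances are from the RefSeq start, and the GENCODE start of Cxcl2 (90903871) lies inside its window. The windows of Cxcl15 and Cxcr2 held no κB match, nor did that of Ppbp, which is not shown. Ccl9 held GGAAAGCCCC at 35 bases before the start. A TATAAA match lay 30 bases before the start in Cxcl3 and 27 bases before it in Cxcl15, and the Ccl9 window held 3 matches, at 224, 94 and 92 bases. Promoter windows were found for 48 of the 64 members, 55 windows in all. For Ackr4, Ccl21b, Ccr1l1, Ccr4, Cxcr1 and some windows of Ccl27b, the bases after the start were not found near a GENCODE transcript start. Those windows may not lie at the annotated start. Of the 55 windows 11 held a κB match (20.0%), against 7.25% of the 32851 windows of all genes. For the other motifs searched on both strands, the C/EBP motif (TTGC and AA set 2 bases apart) was in 14.5% of member windows and 9.56% of all windows, TATAAA in 29.1% and 12.4%, and the androgen response element (AGAACA and TGTTCT set 3 bases apart) in 0 member windows and 0.00913% of all windows. These shares count windows, and overlapping windows of Ccl27a and of its near-identical copy Ccl27b count the same C/EBP site more than once. A match describes letters only, and a window without one says nothing about binding.

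Levels of different genes are compared per kb of exon. In castrated samples the highest mean levels were those of Cxcl17 at 694 rescaled CPM per kb, Cxcl5 at 433, Cxcl15 at 228, Cxcl14 at 132 and Ppbp at 97.5. The Ppbp mean was 31.3 without castrated sample 2. In intact samples Cxcl17 led at 852 per kb, with Cxcl5 at 95.9, Cxcl14 at 94.1, Ccl20 at 72.0, Cxcl15 at 71.8 and Cxcl16 at 70.7, and Ppbp stood at 2.11. Cxcl5 alone made up 23.3% to 31.1% of the reads of all members in castrated samples, against 9.14% and 4.99% in intact samples. Cxcl17, a mucosal chemokine, made up 10.5% to 22.2% of member reads in castrated samples, against 24.9% and 29.1% in intact samples. Summed over all 64 members, the level was 3001 to 3262 rescaled CPM in castrated samples, against 2771 and 2082 in intact samples. The summed receptor level overlapped, at 149 to 261 rescaled CPM in castrated samples and 185 and 139 in intact samples.

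**Figure D2:**
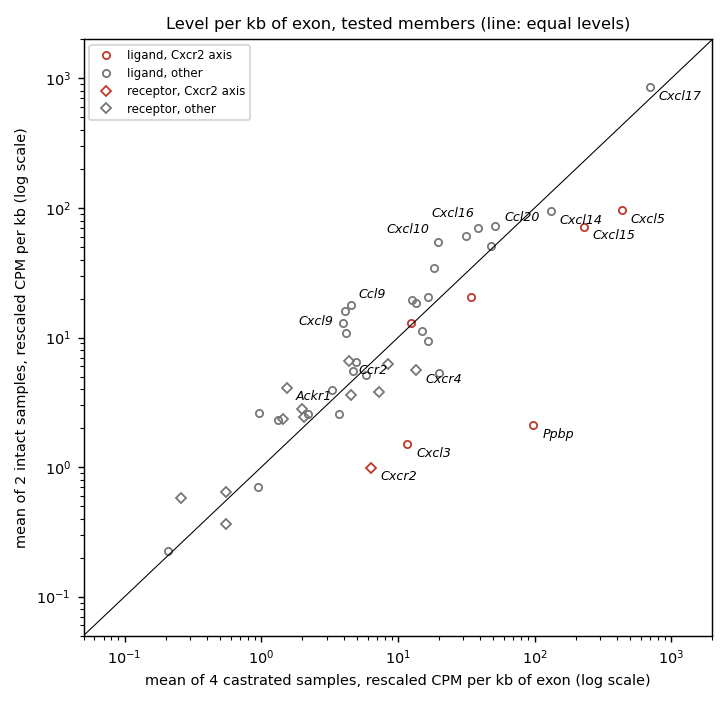
Mean level per kb of exon of the same tested members in 4 castrated samples (horizontal axis, log scale) and 2 intact samples (vertical axis, log scale), in rescaled CPM per kb; the line marks equal levels. Cxcl5, Cxcl15, Cxcl3 and Cxcr2 lie right of the line and Ccl9, Cxcl10 and Cxcl9 left of it, with Cxcl17 near the top.

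Ligands of Cxcr2 were the first group. Cxcl5, a neutrophil attractant of epithelial cells (chromosome 5, 90759360 to 90761624), had 759.6, 749.7, 995 and 724 rescaled CPM in castrated samples 1 to 4, against 253 and 104 in intact samples 1 and 2. All castrated samples lay above both intact samples, and castrated sample 3 was the highest. Its mean was 807 ± 126 in castrated samples (SD, n = 4) and 179 ± 106 in intact samples (n = 2), a log2 difference of 2.30 (95% interval 1.48 to 3.11, adjusted p = 0.0311 in limma). The 4.92-fold rise was 7.66-fold without intact sample 1 and 3.15-fold without intact sample 2. The call was lost in edgeR (adjusted p = 0.0546), without a filter on low values (adjusted p = 0.0608), and without castrated sample 1, 2 or 3 or intact sample 2. Over 17 alternatives the adjusted p ran from 1.10e-08 to 0.0891, with 11 under the threshold.

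Cxcl15, a mouse chemokine with the Glu-Leu-Arg motif that was first described in lung and attracts neutrophils (chromosome 5, 90794534 to 90803067), is placed in this group by its motif. It had 568, 355, 514 and 502 rescaled CPM in castrated samples 1 to 4, against 101 and 204 in intact samples. The groups did not overlap, and castrated sample 2 was the lowest of the castrated samples. The log2 difference was 1.73 (95% interval 1.00 to 2.46, adjusted p = 0.0496), at the edge of the threshold. Only 4 of 17 alternatives called it, with adjusted p-values from 5.83e-06 to 0.227, and among the fits that left out a sample only that without castrated sample 4.

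Cxcl3 (chromosome 5, 90786103 to 90789600), another Cxcr2 ligand, had 37.6, 64.5, 39.4 and 22.5 rescaled CPM in castrated samples, against 8.17 and 2.35 in intact samples. Its groups did not overlap either, and it narrowly missed the threshold, with a log2 difference of 2.96 (95% interval 1.69 to 4.24, adjusted p = 0.0515 in limma, 0.0876 in edgeR and 1.59e-06 in DESeq2). The difference was 13.6-fold without intact sample 1 and 4.47-fold without intact sample 2. Cxcl2, a macrophage and epithelial neutrophil attractant, had 117, 44.8, 76.9 and 43.9 in castrated samples, against 52.9 and 31.5 in intact samples, with overlap (log2 difference 0.66, 95% interval -0.39 to 1.71). Cxcl1, another neutrophil attractant of epithelium and stroma, had 23.2, 23.8, 32.9 and 14.2 in castrated samples, against 38.9 and 9.24 in intact samples. The intact samples bracketed every castrated sample for Cxcl1, and its log2 difference of 0.24 (95% interval -1.12 to 1.59) changed sign in edgeR (-0.03).

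Ppbp encodes platelet basic protein, whose processed form is a Cxcr2 ligand. It had 1.44, 321, 6.54 and 93.8 rescaled CPM in castrated samples 1 to 4 (76, 17917, 373 and 5827 reads), against 0.444 and 4.12 in intact samples (19 and 236 reads). Castrated samples 2 and 4 were far above the other samples, while castrated sample 1 lay below intact sample 2. The log2 difference was 3.60 (95% interval -1.29 to 8.50, adjusted p = 0.466 in limma, 0.351 in edgeR and 0.0498 in DESeq2). It was 2.38 without castrated sample 2, 2.97 without castrated sample 4 and 4.84 without castrated sample 1. The 7 genes of the platelet list summed to between 1.46 and 1.66 in castrated samples, against 1.96 and 2.39 in intact samples. Only 1 of them was expressed highly enough to be tested, and Gp1ba and Gp6 were at or near 0 in every sample. The part of platelets in the Ppbp values was not tested. The neighbouring platelet gene Pf4 had 13.6, 10.3, 12.5 and 7.20 in castrated samples, against 9.46 and 6.78 in intact samples.

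**Figure D3:**
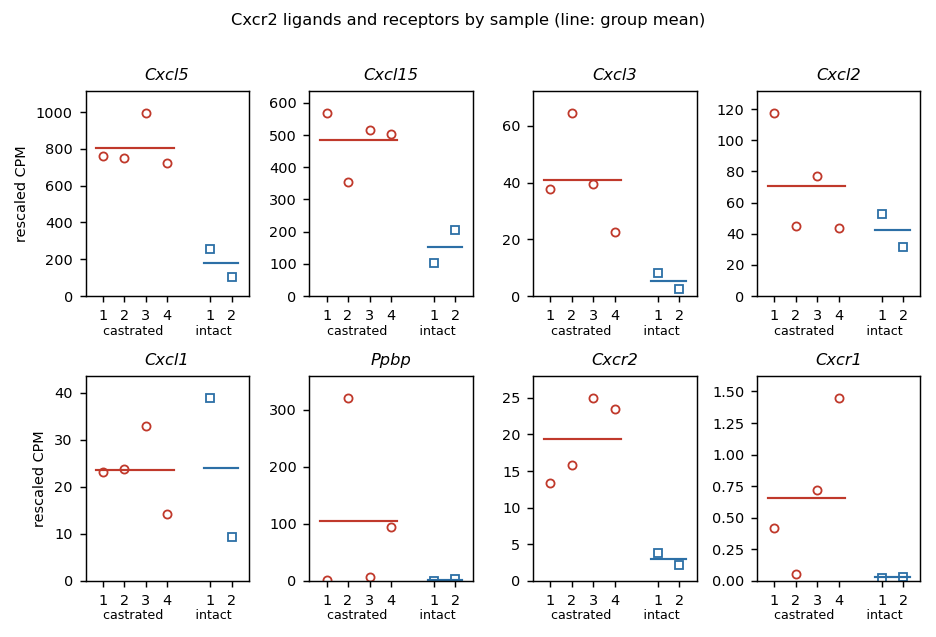
Rescaled CPM of 6 genes grouped as Cxcr2 ligands (Cxcl15 by its motif) and of Cxcr2 and Cxcr1. Each castrated sample (circles, left) and each intact sample (squares, right) is shown on axes that start at 0, and lines are group means. Cxcl5, Cxcl15, Cxcl3 and Cxcr2 show every castrated sample above both intact samples, and Ppbp is high in castrated samples 2 and 4.

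Cxcr2, the receptor that names this group, is a gene of mature neutrophils (chromosome 1, 74153989 to 74161246). It had 13.3, 15.9, 25.0 and 23.5 rescaled CPM in castrated samples 1 to 4, against 3.88 and 2.15 in intact samples. The lowest castrated sample was well above the higher intact sample. The log2 difference was 2.50 (95% interval 1.72 to 3.29, a 5.67-fold rise, adjusted p = 0.0222 in limma and 0.0370 in edgeR). The fold was 4.41 to 7.29 when samples were left out in turn. The call was lost without castrated sample 2 or 3 and without either intact sample, and 13 of 17 alternatives kept it, with adjusted p-values from 1.23e-10 to 0.152. Cxcr1, the second receptor of this kind, was below the filter, with 22, 3, 41 and 90 reads in castrated samples (0.417, 0.0537, 0.719 and 1.45 rescaled CPM), against 1 and 2 reads in intact samples (0.0233 and 0.0349). No test was made for it.

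Neutrophil markers moved with Cxcr2. The 15 listed genes summed to 279, 241, 416 and 326 rescaled CPM in castrated samples 1 to 4, against 94.1 and 43.8 in intact samples. Of the 11 tested, S100a8, S100a9 and Csf3r were called higher in limma (S100a9 alone in edgeR). At an unadjusted p under 0.05, and in DESeq2, 10 were higher, and the median log2 difference was 1.60. Of all genes tested, 0.698% were called higher in limma, 0.389% in edgeR and 4.76% in DESeq2, and 7.84% were higher at that unadjusted p. The list had Elane at 0 reads in all samples, and Camp, Mpo and Ngp at no more than 0.0877. Per 100 CPM of this list, Cxcr2 stood at 4.77, 6.60, 6.0 and 7.21 in castrated samples, against 4.12 and 4.90 in intact samples, so that castrated sample 1 lay between the intact samples. The part of neutrophil number in the Cxcr2 result was not tested.

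Along chromosome 5, the genes from Cxcl5 to Cxcl2 span 147 kb. In that order the log2 differences were 2.30 for Cxcl5, 3.60 for Ppbp, 0.38 for Pf4, 2.96 for Cxcl3, 1.73 for Cxcl15, 0.24 for Cxcl1 and 0.66 for Cxcl2. The called genes Cxcl5 and Cxcl15 lie within the first 5 genes, and Cxcl1 and Cxcl2 follow after a gap of 88.2 kb. A difference between neighbours was not tested.

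**Figure D4:**
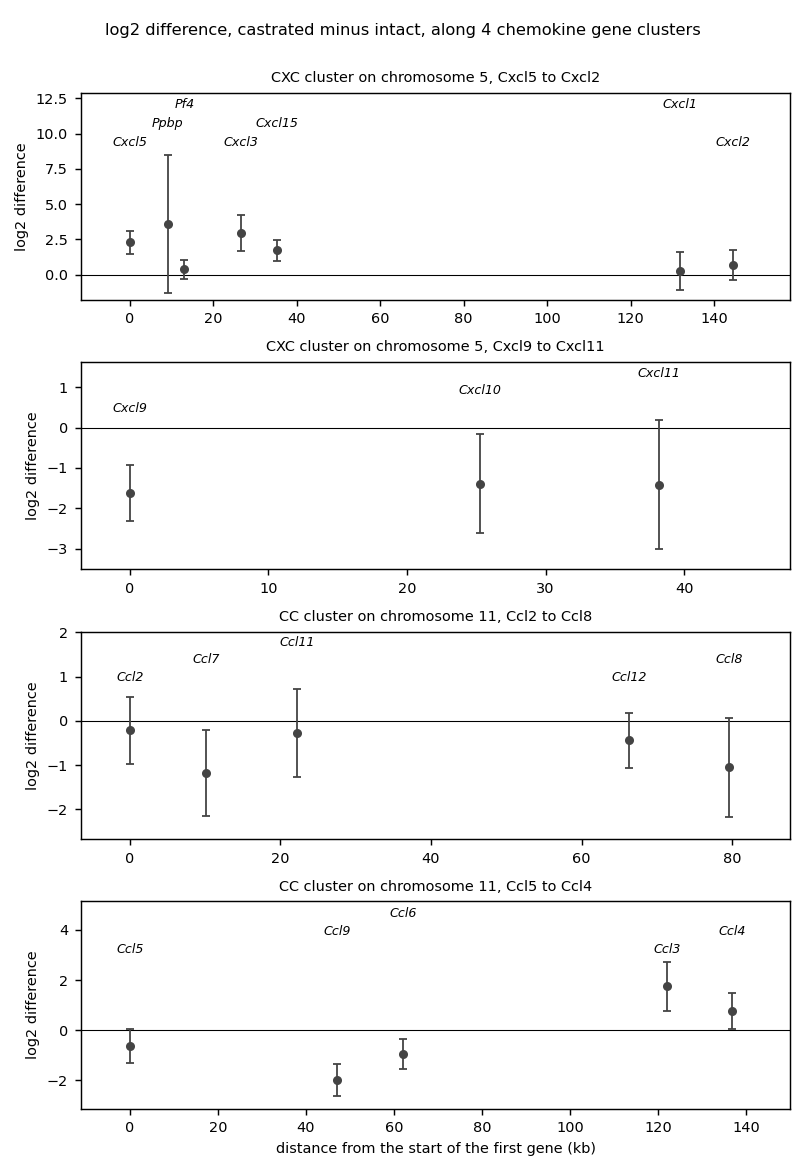
Log2 difference, castrated minus intact, with its 95% interval from limma, against distance from the first gene (kb) in 4 chemokine gene clusters. In the upper panel Cxcl5, Cxcl3 and Cxcl15 lie above 0 with Pf4 near 0 between them; in the lowest panel Ccl9 and Ccl6 lie below 0 and Ccl3 above it.

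The interferon-inducible ligands of Cxcr3 formed another cluster of 44.1 kb on chromosome 5. limma called 0 of the 3 (1.27% of all genes were called lower), with 2 lower at an unadjusted p under 0.05 (8.06% of all genes). edgeR called 0, and DESeq2 called 2 lower (4.54% of all genes). Cxcl9, a T cell attractant induced by interferon gamma (92321347 to 92328079), had 12.9, 11.3, 9.03 and 14.4 rescaled CPM in castrated samples, against 26.8 and 51.2 in intact samples. The groups did not overlap (log2 difference -1.62, 95% interval -2.32 to -0.92, adjusted p = 0.0528 in limma, 0.0507 in edgeR and 8.54e-06 in DESeq2). Cxcl10, likewise induced by interferons, had 40.7, 31.7, 28.9 and 76.1 in castrated samples, against 181 and 65.1 in intact samples, where castrated sample 4 exceeded intact sample 2 (log2 difference -1.39, 95% interval -2.61 to -0.17). Its log2 difference was -0.66 without intact sample 1 and -2.13 without intact sample 2. Cxcl11, which GENCODE annotates as a polymorphic pseudogene, had 3.85, 2.02, 1.23 and 7.46 in castrated samples, against 14.6 and 5.30 in intact samples, with the same sample overlapping, and its log2 difference of -1.42 was -0.73 without intact sample 1 and -2.11 without intact sample 2. Antisense genes overlap 5.91% of the exon bases of Cxcl10 and 41.7% of those of Cxcl11, and the strand setting of the counting is not stated in the sources.

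The receptor Cxcr3 itself had 3.00, 4.19, 2.30 and 4.69 rescaled CPM in castrated samples, against 5.30 and 3.07 in intact samples. The groups overlapped (log2 difference -0.21, 95% interval -1.01 to 0.59). The T and NK cell list summed to 131 to 215 in castrated samples, against 178 and 187 in intact samples, and so overlapped too.

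Cxcl12, a stromal chemokine that retains leukocytes and progenitors through Cxcr4, had 39.9, 24.0, 30.8 and 25.8 rescaled CPM in castrated samples, against 25.6 and 16.7 in intact samples. Its receptor Cxcr4, present on most leukocytes, had 23.8, 16.2, 33.9 and 24.7 in castrated samples, against 14.7 and 5.44 in intact samples. The groups overlapped for Cxcl12 and did not for Cxcr4, and Cxcr4 was called by DESeq2 (adjusted p = 0.0374) but not by limma (log2 difference 1.36, 95% interval 0.35 to 2.37, adjusted p = 0.178). Without intact sample 2 its log2 difference was 0.68, and without intact sample 1 it was 2.03. Ackr3, the atypical receptor that takes up Cxcl12, had 7.23, 8.18, 4.89 and 6.49 in castrated samples, against 7.59 and 11.2 in intact samples, with overlap.

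Among the other CXC ligands, Cxcl16, a membrane-bound and shed ligand of Cxcr6, had 104, 113, 97.2 and 149.9 rescaled CPM in castrated samples, against 223 and 204 in intact samples. Every castrated sample was below both intact samples, with castrated sample 4 the nearest. The log2 difference was -0.90 (95% interval -1.33 to -0.47, adjusted p = 0.0669 in limma, 0.0825 in edgeR and 0.000839 in DESeq2), and without castrated sample 4 it was -1.03 (adjusted p = 0.00617). Antisense exons of Zmynd15 cover 18.3% of its exon bases. Its receptor gene Cxcr6 had 8.46, 9.45, 6.49 and 10.4 in castrated samples, against 7.49 and 6.51 in intact samples.

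The abundant mucosal ligands did not separate the groups. Cxcl17 had 725, 519, 545 and 324 rescaled CPM in castrated samples, against 691 and 605 in intact samples, and Cxcl14, an epithelial chemokine, had 224, 194, 177 and 367, against 192 and 152. Both overlapped, with castrated sample 4 lowest for Cxcl17 and highest for Cxcl14. Their log2 differences were -0.35 (95% interval -1.06 to 0.37) and 0.43 (95% interval -0.28 to 1.14). Cx3cl1, the membrane-bound fractalkine, varied little, with 199, 178, 207 and 171 in castrated samples, against 184 and 213 in intact samples (log2 difference -0.07, 95% interval -0.36 to 0.21). Its receptor gene Cx3cr1, a gene of monocytes and tissue macrophages, had 32.8, 35.2, 36.1 and 48.1 in castrated samples, against 29.5 and 26.5 in intact samples. The groups did not overlap for Cx3cr1, but the difference did not pass the test (log2 difference 0.42, adjusted p = 0.292).

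Among the CC ligands, Ccl9 (chromosome 11, 83572919 to 83578636), a rodent ligand of Ccr1 made by myeloid cells, had 9.18, 14.5, 12.4 and 19.3 rescaled CPM in castrated samples 1 to 4, against 53.5 and 55.1 in intact samples. The intact samples differed little from each other and lay far above every castrated sample. The mean was 13.9 ± 4.26 in castrated samples (SD, n = 4) and 54.3 ± 1.10 in intact samples (n = 2). Ccl9 fell 3.94-fold, with a log2 difference of -1.98 (95% interval -2.63 to -1.33, adjusted p = 0.0243 in limma and 0.0283 in edgeR). The fold was 3.50 to 4.45 when samples were left out in turn, but the call was lost without castrated sample 2 or 3 and without either intact sample. Of 17 alternatives 13 kept it, with adjusted p-values from 1.05e-08 to 0.182.

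Ccl6, the neighbouring gene and likewise a rodent Ccr1 ligand, had 23.8, 29.3, 33.1 and 45.6 rescaled CPM in castrated samples, against 68.1 and 55.9 in intact samples. Its groups did not overlap, and the log2 difference was -0.94 (95% interval -1.53 to -0.34, adjusted p = 0.130 in limma and 0.0180 in DESeq2). Without castrated sample 4 it was -1.11 (adjusted p = 0.0191). Ccl3, an attractant of macrophages that acts through Ccr1 and lies 54.8 kb beyond Ccl6, had a positive difference, with 13.4, 8.31, 17.6 and 21.4 in castrated samples, against 5.39 and 2.81 in intact samples. Every castrated sample was above both intact samples (log2 difference 1.75, 95% interval 0.77 to 2.73, adjusted p = 0.0955 in limma and 0.000632 in DESeq2). Ccl4, the neighbour of Ccl3 and likewise a macrophage attractant, had 10.2, 7.45, 12.0 and 14.3 in castrated samples, against 7.73 and 4.71 in intact samples, with castrated sample 2 just below intact sample 1.

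The receptor Ccr1, shared by Ccl9, Ccl6 and Ccl3, had 15, 17.2, 19.7 and 30.6 rescaled CPM in castrated samples, against 13.5 and 7.90 in intact samples. The groups did not overlap, and the difference did not pass the test (log2 difference 0.91, 95% interval 0.13 to 1.69, adjusted p = 0.237). Ccr2, the receptor of inflammatory monocytes, had 16.5, 19.9, 21.8 and 60.6 in castrated samples, against 47.6 and 41.1 in intact samples. Castrated sample 4 was the highest of all 6 samples for Ccr2, and the other castrated samples lay below both intact samples. With all samples the log2 difference of Ccr2 was -0.77 (adjusted p = 0.528), and without castrated sample 4 it was -1.18 (adjusted p = 0.0120).

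The Ccr2 ligands Ccl2, Ccl7, Ccl8 and Ccl12, with Ccl11, form a cluster of 81.2 kb on chromosome 11. Ccl7, a monocyte attractant, had 2.54, 3.31, 2.51 and 5.07 rescaled CPM in castrated samples, against 12.3 and 5.08 in intact samples, where castrated sample 4 and intact sample 2 almost met (log2 difference -1.18, adjusted p = 0.218). The difference was -0.58 without intact sample 1 and -1.78 without intact sample 2. Ccl8 had 9.44, 8.74, 25.8 and 20.7 in castrated samples, against 35.7 and 26.3 in intact samples, again without overlap (adjusted p = 0.344). Ccl2, Ccl11 and Ccl12 overlapped. The monocyte and macrophage list summed to between 1088 and 1591 in castrated samples, against 1221 and 1434 in intact samples, with a median log2 difference of -0.03. In that list limma called only Ly6c2, a surface gene of inflammatory monocytes. Ly6c2 had 20.4, 26.1, 8.93 and 10.6 in castrated samples, against 93.4 and 80.7 in intact samples (log2 difference -2.49, adjusted p = 0.0466 in limma and 0.0559 in edgeR). Of 17 alternatives 9 kept that call. DESeq2 called 1 gene of the list higher and 3 lower (26.7%, against 9.30% of all genes). At an unadjusted p under 0.05 limma also had 1 higher and 3 lower (26.7%, against 15.9%). The part of monocyte number in these values was not tested.

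**Figure D5:**
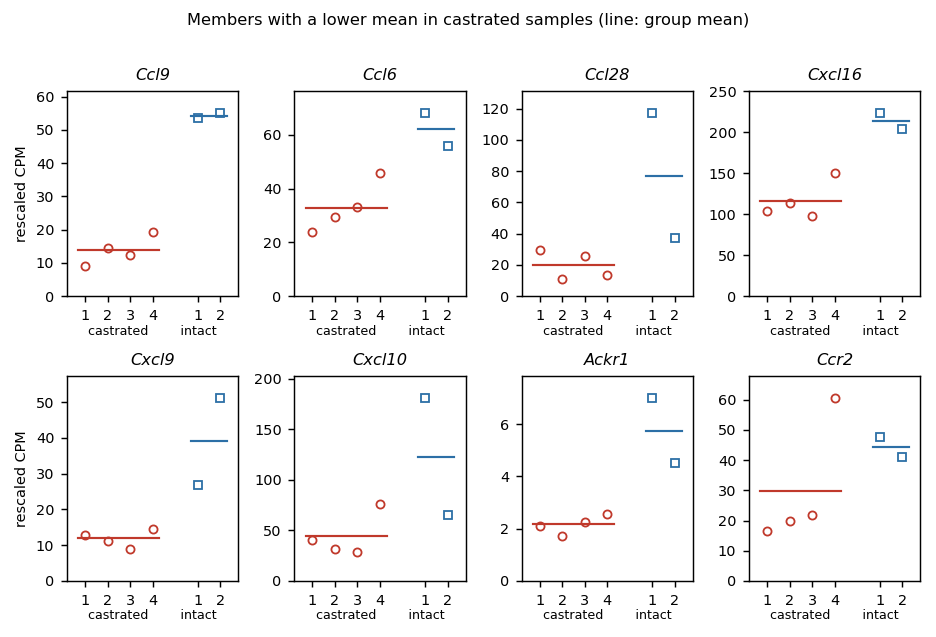
Rescaled CPM of 8 members with a lower mean in castrated samples, in each castrated sample (circles, left) and each intact sample (squares, right), on axes that start at 0; lines are group means. Ccl9, Ccl6, Ccl28, Cxcl16, Cxcl9 and Ackr1 show no overlap, while castrated sample 4 overlaps the intact samples for Cxcl10 and Ccr2.

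Ccl28, an epithelial ligand of Ccr10 and Ccr3, had 29.3, 11.2, 25.4 and 13.6 rescaled CPM in castrated samples, against 117 and 37.0 in intact samples. The groups did not overlap, but the intact samples differed widely from each other. The log2 difference was -1.81 (95% interval -3.15 to -0.48, adjusted p = 0.174 in limma, 0.140 in edgeR and 0.00388 in DESeq2), and it was -0.99 without intact sample 1 and -2.64 without intact sample 2. Its receptor genes Ccr10 and Ccr3 were below the filter, at no more than 0.453 and 0.306 in any sample. Ccl20, the epithelial ligand of Ccr6, had 83.8, 46.0, 83.2 and 78.9 in castrated samples, against 177 and 27.2 in intact samples, so that the intact samples bracketed every castrated sample.

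Ackr1, an atypical receptor of venular endothelium and red cells that takes up CC and CXC ligands, had 2.11, 1.74, 2.26 and 2.58 rescaled CPM in castrated samples, against 7.0 and 4.5 in intact samples. All castrated samples were below both intact samples (log2 difference -1.21, 95% interval -1.80 to -0.61, adjusted p = 0.0727 in limma and 0.000936 in DESeq2), and without castrated sample 4 the adjusted p was 0.0380 in limma. Exons of Cadm3 on the same strand share 25.7% of its exon bases, and reads there cannot be assigned with certainty. The endothelial list summed to 124 to 214 in castrated samples, against 182 and 212 in intact samples, with a median log2 difference of -0.31, and its part in the Ackr1 values was not tested. The lymphoid members Ccl19, Cxcl13, Ccr7 and Cxcr5, which organise lymphocytes and dendritic cells, overlapped between the groups in every case.

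The 16 members below the filter comprised 7 ligands and 9 receptors. Ccl21a, Ccl21b, Ccl21c, Ccl26 and Ccl27b had 0 reads in every sample. The Ccl21 genes, and Ccl27b with Ccl27a, have near-identical copies, and the treatment of reads that match several copies is not stated in the sources. The other 11 were Ackr2, Ccl1, Ccl24, Ccr10, Ccr1l1, Ccr3, Ccr4, Ccr6, Ccr8, Ccr9 and Cxcr1, with means over all samples from 0.0435 rescaled CPM for Ccr1l1 to 0.692 for Ackr2.

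Of 34 genes that act in signalling below the receptors, limma and edgeR called 0, against 1.97% and 1.46% of all genes. DESeq2 called 3 higher and 1 lower (11.8%, against 9.30%), and at an unadjusted p under 0.05 limma had 3 higher and 1 lower (11.8%, against 15.9%), shares close to the background. The genes with an unadjusted p under 0.05 were Rgs1, which switches off G proteins (log2 difference 1.42, adjusted p = 0.0552), Pik3cg, the leukocyte kinase driven by G proteins (0.65, adjusted p = 0.104), the receptor kinase gene Adrbk2 (0.46, adjusted p = 0.122) and Arrb1, an arrestin that desensitises receptors (-0.75, adjusted p = 0.166). The list had a median log2 difference of -0.02.

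Of 31 tested genes of the pathways that control chemokine transcription (cytokines, their receptors, and NF-κB subunits with their inhibitors), 0 were called higher and 3 lower in limma (9.68%, against 1.97% of all genes). edgeR gave the same counts, and DESeq2 called 0 higher and 6 lower (19.4%, against 9.30%). At an unadjusted p under 0.05 limma had 1 higher and 9 lower (32.3%, against 15.9%). The median log2 difference was -0.24, with 9 genes above 0 and 22 below. Nfkb2, a subunit of the non-canonical NF-κB pathway, had 95.4, 90.8, 91.2 and 96.2 rescaled CPM in castrated samples, against 144 and 143 in intact samples (log2 difference -0.62, adjusted p = 0.0212 in limma). The other called genes were Relb, its partner (-0.78, adjusted p = 0.0266), and Nfkbia, the NF-κB inhibitor that NF-κB itself induces (-0.68, adjusted p = 0.0275), and no castrated sample reached an intact one for any of the 3. Among the alternatives 11 of 17 kept the call for Nfkb2, 12 for Relb and 10 for Nfkbia, and of the fits that left out a sample only that without castrated sample 4. The NF-κB inhibitor gene Tnfaip3 missed the threshold (-0.93, adjusted p = 0.0669). Il1b, chosen after its values were seen because it encodes an inducer of Cxcr2 ligands, had 29.2, 17.7, 25.0 and 39.5 in castrated samples, against 17.2 and 6.23 in intact samples (log2 difference 1.32, adjusted p = 0.207). The difference was 2.01 without intact sample 1 and 0.62 without intact sample 2.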

How the data were processed

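The submitters' processing notes name TopHat2, HTSeq, edgeR and the build mm10, with no versions, and the settings are not given in the sources used here. The authors deposited 1 table of CPM per sample, reads per 1000000 reads in genes. Dividing each column by its smallest nonzero entry gave whole numbers for 100% of entries (tolerance 1e-06), which are the recovered reads. Floors cover counting error only.

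Size factors by the median-of-ratios method rescaled the CPM. A gene was tested when 2 or more samples had a CPM of 1 or more, with limma 3.58.1 (R 4.3.3) on log2(rescaled CPM + 0.5), with a mean-variance trend, two-sided, with Benjamini-Hochberg adjustment over 13898 genes and a threshold of 0.05. Fold changes are on that scale, which understates those of low genes. The 17 alternatives were other pseudocounts, filters and scalings, no trend, count tests on the reads (the quasi-likelihood test of edgeR 4.0.16, and DESeq2 1.42.0), the replicate number as a block, and each of 6 samples left out with the genes tested kept. Where 1 intact sample remained, it was assumed to vary like the others. In the block fit castrated samples 3 and 4 have no same-numbered intact sample and do not enter the group difference. That difference rests on castrated samples 1 and 2 against the intact samples. Promoter windows were read from RefSeq and searched on both strands. Gene positions and exons are from GENCODE M21 (GRCm38, the assembly of mm10). The members, lists and tests were chosen with earlier results of these data known. Members were given by sample when any of limma, edgeR or DESeq2 called them, when the unadjusted p was under 0.05, when they belong to the Cxcr2, Cxcr3 or Cxcl12 axes, when they were among the 10 highest by mean CPM, or when they are partners of called members. Ccr2, Ccl8 and Pf4 were added after their values were seen. Some genes, 1 receptor among them, are counted but not reported by name here.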

Additional observations from a re-analysis of the deposited data

Results flagged for a closer look

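In 3 of the 33 members given by sample, a castrated sample lay far from the other castrated samples relative to the range of the group, by Dixon's criterion for 4 samples (critical value 0.829). Chance alone gives such a gap in about 1 group in 20. Ccl20 had 46 rescaled CPM in castrated sample 2, against 78.9 to 83.8 in the other castrated samples, and 177 and 27.2 in intact samples. Cxcl5 had 995 in castrated sample 3, against 724 to 759.6 in the other castrated samples, and 253 and 104 in intact samples. Ccr2 had 60.6 in castrated sample 4, against 16.5 to 21.8 in the other castrated samples, and 47.6 and 41.1 in intact samples. No cause was tested.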

How the results depend on the processing

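Members called in limma numbered 4 (3 higher, 1 lower). The number was 2 (1 higher) with no filter and in edgeR, 14 in DESeq2 (7 higher, 7 lower), 8 with the replicate block (6 lower), and 0 to 10 with a sample left out (0 to 4 higher, 0 to 6 lower). All genes called numbered 274 (97 higher, 177 lower). They were 170 with no filter (45 higher), 54 higher in edgeR, 1293 in DESeq2 (662 higher, 631 lower), 417 with the replicate block (176 higher), and 19 to 1040 with a sample left out (3 to 459 higher, 15 to 581 lower). The cause was not tested. The replicate block compares castrated samples 1 and 2 with the intact samples, because castrated samples 3 and 4 have no same-numbered intact sample.

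Of 48 tested members, 38 kept 1 direction throughout. The log2 difference of Ccl20 was -0.49 in edgeR, -0.48 in DESeq2 and -0.17 with the block, that of Cxcl1 was -0.0326 in edgeR and -0.0292 in DESeq2, and with the block Ccl19 stood at 0.21 and Cxcl13 at 0.26. With a sample left out it ran from -1.14 to 0.80 for Ccl19, -0.54 to 0.10 for Ccl2, -1.32 to 1.36 for Ccl20, -1.29 to 0.48 for Ccr7, -0.18 to 0.0303 for Cx3cl1, -0.77 to 1.24 for Cxcl1, -1.27 to 0.99 for Cxcl13, -0.56 to 0.14 for Cxcr3, -1.66 to 1.02 for Cxcr5 and -0.0762 to 0.30 for Xcl1. The labels do not say whether same-numbered samples belong together. Their deviations correlated at 0.0755 and 0.226, over 2 pairs. With 2 intact samples the intact deviations mirror each other, so these correlations cannot decide whether samples are paired. The intact group held only 2 samples, and calls depended on castrated samples too: limma called 0 members without castrated sample 2 or 3. At this depth 11 members with reads were too low to test.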

Other observations

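Ppbp was not the only gene high in castrated samples 2 and 4. The genes below were chosen after their values were seen. The basal keratin gene Krt5 had 209, 1364, 236 and 871 rescaled CPM in castrated samples 1 to 4, against 785 and 908 in intact samples. Krt14, another basal keratin gene, had 53.3, 376, 55.2 and 224 in castrated samples, against 272 and 253 in intact samples, and Il33, which encodes an epithelial alarm cytokine, had 64.7, 246, 63.9 and 248, against 268 and 330. For these genes castrated samples 1 and 3 were the low ones, whereas for Ppbp the intact samples were low. For Krt5 and Krt14 the intact samples lay below castrated sample 2 and near or above castrated sample 4. For Il33 they lay above both. Tiam1, a Rac activator on the list of receptor signalling genes, had 7.74, 39.4, 10.7 and 33.6 in castrated samples, against 10.3 and 11.9 in intact samples, and was also highest in castrated samples 2 and 4. None of these splits was tested.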
